A study of Homo sapiens with 12 samples.

Results

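The genes described here are 44 interferon-stimulated effectors, the proteins that carry out the antiviral and growth-restraining actions of interferons. They were chosen by name, from a list of symbols matched to the Ensembl identifiers of the count table, which holds 60663 gene identifiers. All 44 were found in it, and 41 passed the filter on low counts, as did 20714 genes in all. RNA was sequenced from RCC4, a human clear cell renal carcinoma line, after depletion of ribosomal RNA. The 4 groups held 3 libraries each, 12 in all.

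The groups were VHL-negative cells under 5 µM JQ1, VHL-negative cells under DMSO, VHL-positive cells under 5 µM JQ1 and VHL-positive cells under DMSO. VHL-negative cells are the line with its own loss of VHL, the tumour suppressor that marks hypoxia-inducible factors for degradation, and VHL-positive cells are the same line with VHL put back. JQ1 binds the bromodomains of BET proteins, readers of acetylated histones, and the labels name it an inhibitor of MYC; DMSO is its solvent. All cells were grown in medium with geneticin. The VHL construct, the number of clones and the time of treatment are not given in the sources used here. Nor is it stated whether the libraries of a group came from separate cultures, so p-values measure the spread between these libraries, which may be technical. The growth protocol also mentions MYC knockdown cells, which were not analysed here.

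Interferons bind receptors at the cell surface, whose kinases JAK1, TYK2 and JAK2 activate transcription factors. One of these is the complex ISGF3, which binds the interferon-stimulated response element (ISRE) in the promoters of effector genes, and a separate element is named GAS. Many effectors are also transcribed at a low level without added interferon, and no interferon treatment is named in the labels.

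The promoter sequences show how far the effectors share such an element. RefSeq promoters on GRCh38.p14, running from 250 bases before to 50 bases after a gene's start, were at hand for 36 of the 44 members, with 48 promoters between them. The ISRE core was searched as GAAANNGAA on both strands. It stood in 35 of the 48 promoters (72.9%, exact 95% binomial interval 58.2 to 84.7%) and in 2847 of all 35116 promoters (8.11%). The interval takes promoters as independent and is too narrow, since some overlap and hold the same site. Both promoters of IFI27 do so, as do both of IFI44. A promoter of PARP9 likewise shares its site with that of DTX3L, and a promoter of RSAD2 with a promoter of CMPK2. The GAS motif TTCNNNGAA, which reads the same on both strands, stood in 12 of the members' 48 promoters and in 7.66% of all, and can overlap the ISRE core. Below are 4 promoters, 5′ to 3′ on the gene's own strand, with the ISRE core in capitals where it lies on either strand. They belong to IFI44L, which was lower with JQ1 in both lines, SAMD9, the member whose JQ1 effect differed between the lines, HERC5, which was higher in VHL-negative cells, and IFIT5, whose libraries overlapped in every comparison. IFI44L lies at chr1:78620198-78620497 (+ strand), SAMD9 at chr7:93117930-93118229 (- strand), HERC5 at chr4:88456869-88457168 (+ strand) and IFIT5 at chr10:89414318-89414617 (+ strand).
IFI44L: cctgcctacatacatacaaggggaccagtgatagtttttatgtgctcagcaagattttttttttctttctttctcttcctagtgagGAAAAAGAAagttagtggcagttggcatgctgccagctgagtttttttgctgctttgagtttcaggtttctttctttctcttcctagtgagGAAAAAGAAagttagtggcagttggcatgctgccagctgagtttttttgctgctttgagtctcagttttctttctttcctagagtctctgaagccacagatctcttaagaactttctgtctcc
SAMD9: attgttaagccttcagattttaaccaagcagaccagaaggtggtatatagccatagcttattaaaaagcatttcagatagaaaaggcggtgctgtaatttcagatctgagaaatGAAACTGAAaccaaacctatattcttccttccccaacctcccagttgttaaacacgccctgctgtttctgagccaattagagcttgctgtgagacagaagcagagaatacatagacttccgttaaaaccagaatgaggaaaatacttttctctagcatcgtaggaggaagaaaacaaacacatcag
HERC5: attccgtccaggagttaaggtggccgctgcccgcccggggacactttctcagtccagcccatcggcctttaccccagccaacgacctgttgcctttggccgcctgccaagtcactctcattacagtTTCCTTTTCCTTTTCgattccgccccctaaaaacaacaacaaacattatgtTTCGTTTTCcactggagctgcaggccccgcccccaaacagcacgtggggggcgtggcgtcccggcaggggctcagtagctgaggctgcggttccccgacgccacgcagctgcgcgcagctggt
IFIT5: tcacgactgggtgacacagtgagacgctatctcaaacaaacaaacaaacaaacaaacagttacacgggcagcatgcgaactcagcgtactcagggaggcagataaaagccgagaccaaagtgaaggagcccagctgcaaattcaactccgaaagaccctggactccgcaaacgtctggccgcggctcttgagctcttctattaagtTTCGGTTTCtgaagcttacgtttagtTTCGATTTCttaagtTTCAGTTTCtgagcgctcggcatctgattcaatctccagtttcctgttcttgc

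IFI44L has 2 matches, SAMD9 has 1, HERC5 has 3 and IFIT5 has 3, so promoters with several matches belonged both to members that fell and to members that did not pass. By gene, 30 of the 36 members with a promoter had at least 1 ISRE core. The 6 without a match were HERC6, IFI35, OAS1, SAMD9L, SP110 and XAF1. The search fixed 2 bases between the parts of the core. With 1 to 3 bases allowed there, 42 of the members' 48 promoters matched, and 19.9% of all promoters. With a further A required after the core, 32 of the 48 matched, and 3.57% of all. A gene without a match is thus not shown to lack such an element. Of the 17 members that fell with JQ1 in both lines, 16 had a promoter and 14 of these had the core. Of the 7 members that passed in neither line, all 7 had a promoter and 5 had the core. A match describes letters and is not a measured binding site.

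The members were read at low to moderate levels. In DMSO-treated VHL-positive cells 27 of the 41 tested members averaged at least 10 CPM, counts per 1000000 on library sizes scaled by TMM, and 3 averaged under 1 CPM. In VHL-negative cells under JQ1 14 averaged at least 10 CPM and 16 averaged under 1 CPM. Per kilobase of exon, the highest level in DMSO-treated VHL-positive cells was that of LGALS3BP, a secreted glycoprotein that binds galectins, at 95.3 ± 12.8 CPM per kb (SD, n = 3). BST2, which tethers budding virions to the membrane, followed at 44.1 ± 7.16 CPM per kb and DTX3L, a ubiquitin ligase, at 27.4 ± 2.23 CPM per kb. OAS3, PARP14 and IFI16 came next, at 17.3 ± 4.79, 16.4 ± 0.583 and 16.4 ± 1.09 CPM per kb, closer to each other than their spread. At the low end RSAD2 had 0.149 ± 0.0558 and OAS2 0.0975 ± 0.0147 CPM per kb. On the longest transcript in place of all exons, LGALS3BP had 142 CPM per kb. IFITM1, IFITM2 and MX2 were not tested, with 40, 12 and 20 counts over all 12 libraries.

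The library of VHL-negative JQ1 replicate 2 was the shallowest, with 15452949 counts, and that of VHL-positive DMSO replicate 3 the deepest, with 32502310. Transcripts of the mitochondrial genome took 9.90% (VHL-negative, DMSO, replicate 3) to 25.3% (VHL-negative, DMSO, replicate 1) of counts. VHL averaged 32.6 ± 2.39 CPM in VHL-negative cells under JQ1 and 26.4 ± 1.64 CPM under DMSO, against 212 ± 14.0 CPM in VHL-positive cells under JQ1 and 70.2 ± 7.62 CPM under DMSO (SD, n = 3 each). In edgeR's quasi-likelihood test VHL rose with JQ1 in VHL-positive cells (log2 1.59, adjusted p = 3.47e-07). It did not pass in VHL-negative cells (log2 0.31, adjusted p = 0.0674), and its JQ1 effects differed between the lines (log2 -1.29, adjusted p = 0.00161). The lines thus lay further apart in VHL RNA under JQ1 (log2 -2.70) than under DMSO (log2 -1.41). The part of this in the results was not tested. HEXIM1, a gene known to rise under BET inhibitors, was higher with JQ1 in both lines (log2 1.43 in VHL-negative and log2 1.26 in VHL-positive cells). MYC was lower with JQ1 in VHL-negative cells, at 159.7 ± 28.9 CPM under JQ1 and 342 ± 84.4 CPM under DMSO (log2 -1.10, adjusted p = 0.000869), and did not pass in VHL-positive cells, at 161 ± 18.8 CPM under JQ1 and 171 ± 48.0 CPM under DMSO (log2 -0.08, adjusted p = 0.795). The difference between both effects did not pass (adjusted p = 0.0852). Of 10 renal markers, PAX8 and 8 others were read in every library and CA9 was at 0 in at least 1, and the sum over the 10 was 2286 to 2916 CPM. Single renal markers differed between the lines, with 2 higher and 5 lower in VHL-negative cells under DMSO as under JQ1. Of 8 leukocyte markers 1, CSF1R, passed the filter, and the sum over all 8 was 0.887 to 1.63 CPM in VHL-negative cells under JQ1, 3.29 to 4.43 CPM under DMSO, 1.38 to 1.58 CPM in VHL-positive cells under JQ1 and 1.65 to 2.08 CPM under DMSO. PTPRC, which marks leukocytes, stayed at or below 0.328 CPM; of 3 markers of the interferon-producing plasmacytoid dendritic cells, CLEC4C and LILRA4 were not tested and reached at most 0.0595 and 0.146 CPM. The third, IL3RA, a cytokine receptor chain, was read in every library at 1.70 to 4.93 CPM and passed in none of the 5 comparisons. The sum over these 3 was 2.18 to 4.46 CPM in VHL-negative cells under JQ1, 1.81 to 3.07 CPM under DMSO, 3.60 to 4.93 CPM in VHL-positive cells under JQ1 and 2.83 to 3.82 CPM under DMSO. Of 5 endothelial markers 1 was tested, and all 5 summed to 5.80 to 10.1 CPM in VHL-negative cells under JQ1, 4.66 to 5.08 CPM under DMSO, 4.21 to 4.40 CPM in VHL-positive cells under JQ1 and 2.496 to 3.17 CPM under DMSO. Of 5 fibroblast markers 2 were tested, and the sums in the same order of groups were 2.42 to 3.87, 8.06 to 10.8, 0.800 to 1.09 and 1.85 to 4.41 CPM. The part of these markers in the results was not tested. In bulk RNA, fewer cells that express a gene and less RNA per cell cannot be told apart.

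**Figure D1:**
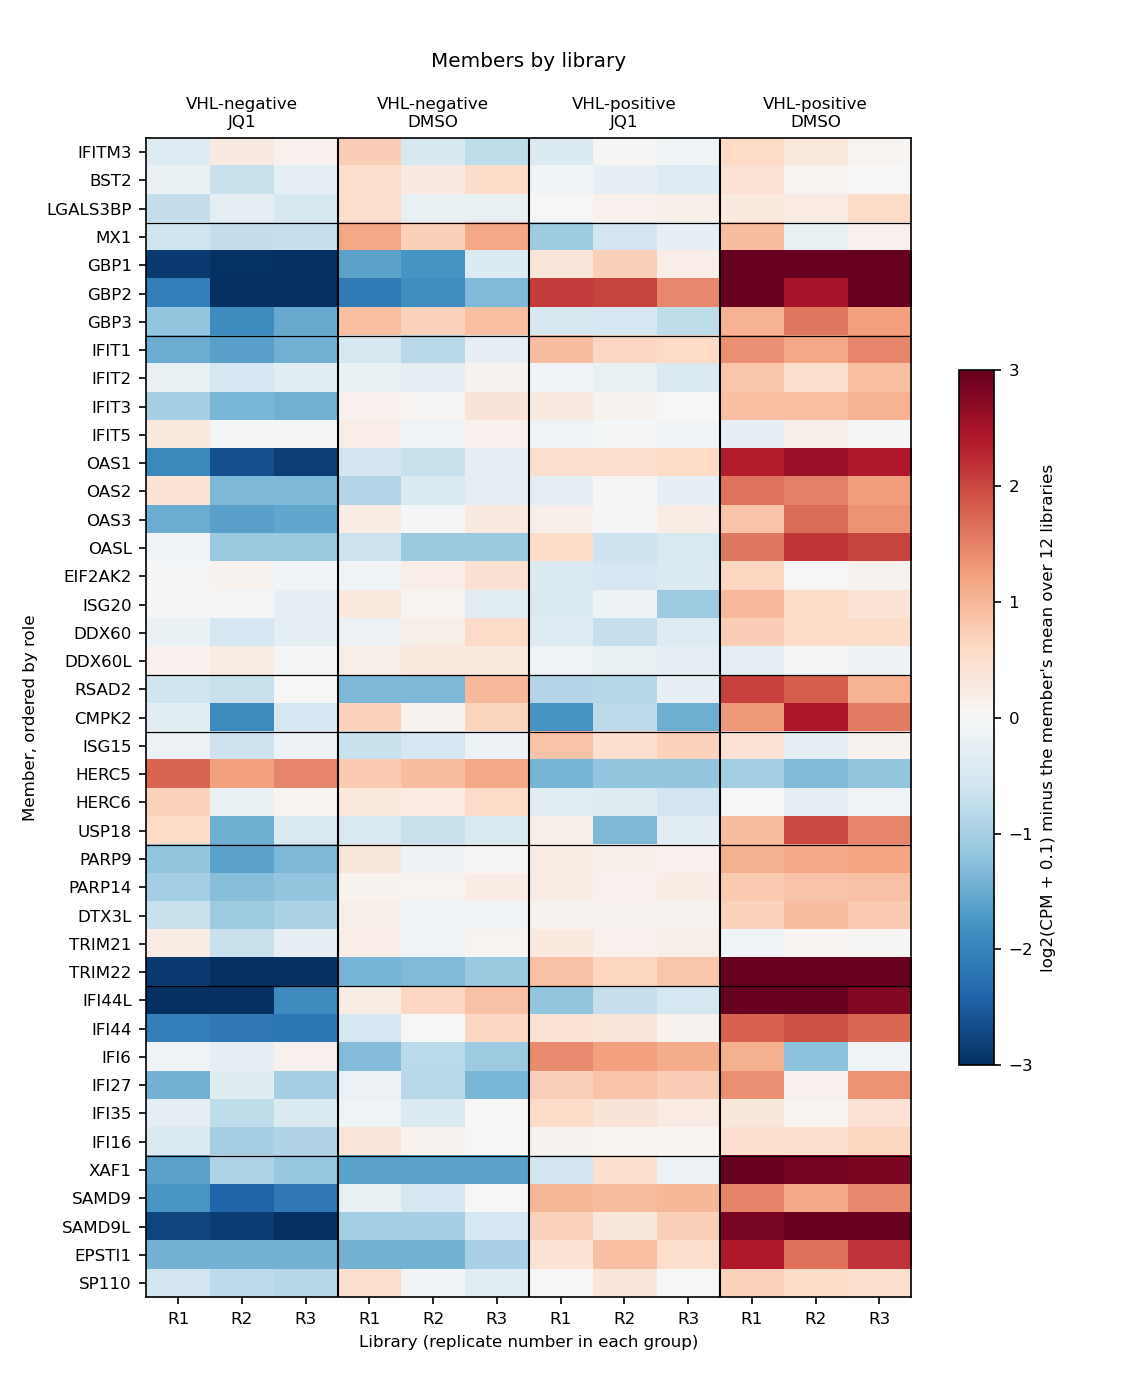
Levels of the 41 tested members in the 12 libraries, as log2(CPM + 0.1) minus each member's mean over all libraries; rows are members ordered by role, columns are libraries by group, and colours end at -3 and 3. GBP1, TRIM22, SAMD9L and OAS1 are highest in VHL-positive cells under DMSO and lowest in VHL-negative cells under JQ1, while HERC5 is high in all 6 VHL-negative libraries.

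JQ1 lowered much of the group in both lines. In VHL-negative cells under JQ1, 21 of the 41 tested members fell against DMSO, 1 rose and 19 did not pass, at an adjusted p under 0.05 in edgeR's quasi-likelihood test over all 20714 genes. In VHL-positive cells 27 fell, 2 rose and 12 did not pass. Of all genes tested, 17.5% fell and 14.6% rose with JQ1 in VHL-negative cells, and 16.5% fell and 15.3% rose in VHL-positive cells. The members' median change was log2 -0.81 in VHL-negative cells, where the median of all genes was 0.03, and log2 -0.97 in VHL-positive cells, where it was -0.03. At least a 2-fold fall was fitted for 15 of the members called in VHL-negative cells and for 19 in VHL-positive cells. How many of all genes fell by as much was not counted, so these 2-fold numbers describe the members' sizes of change alone. These comparisons have no library in common, though both come from 1 model over all 12 libraries with a shared estimate of the spread. In both, 17 members (41.5% of those tested) fell, as did 2012 of all genes (9.71%). Among the 17, CMPK2 and DDX60 lost the call in VHL-negative cells in at least 1 fit without a library. IFI16, IFIT1 and MX1 lost the call in VHL-positive cells in the same way.

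**Figure D2:**
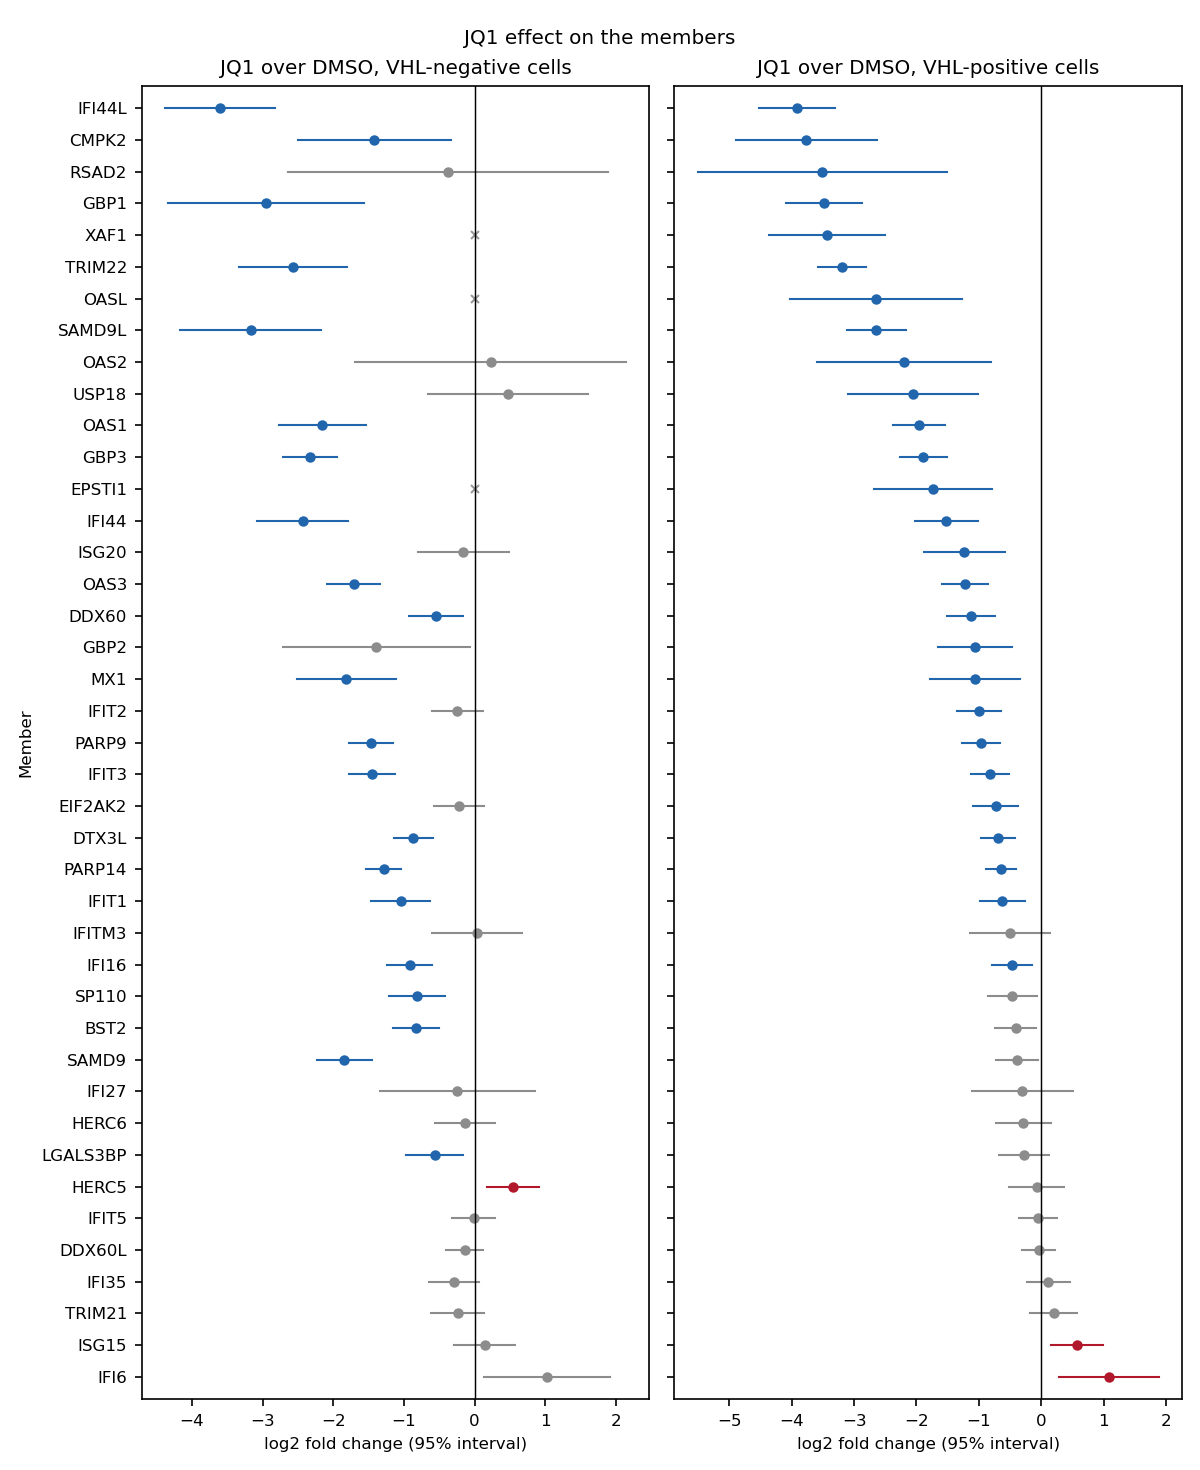
JQ1 effect on each tested member in VHL-negative cells (left) and VHL-positive cells (right), as log2 fold change of JQ1 over DMSO with its 95% interval; blue fell, red rose, grey did not pass, and a grey cross marks a member with 3 or fewer counts in a group, for which no fold is drawn. IFI44L has the lowest value in both lines, at log2 -3.60 and -3.92, while HERC5 rose in VHL-negative and IFI6 and ISG15 in VHL-positive cells.

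The IFI genes, named for their induction by interferon, held the largest fall in both lines and 1 of the 2 rises in VHL-positive cells. IFI44L (ENSG00000137959, chromosome 1, 78619922 to 78646145), an interferon-induced protein of the cytoplasm, had 0.137, 0.119 and 0.465 CPM in VHL-negative cells under JQ1, against 2.35, 3.13 and 3.76 CPM under DMSO. In VHL-positive cells it had 0.836, 1.21 and 1.38 CPM under JQ1, against 17.4, 19.4 and 14.3 CPM under DMSO. Every JQ1 library lay below every DMSO library of its line, and IFI44L fell in VHL-negative (log2 -3.60 with an SE of 0.37, adjusted p = 3.33e-06) and in VHL-positive cells (log2 -3.92 with an SE of 0.29, adjusted p = 1.95e-07). Without VHL-negative JQ1 replicate 3 its fall in VHL-negative cells was log2 -4.51. Its neighbour IFI44 (ENSG00000137965, chromosome 1, 78649796 to 78664078) had 0.512, 0.476 and 0.465 CPM in VHL-negative cells under JQ1, against 1.66, 2.48 and 3.80 CPM under DMSO, and fell (log2 -2.43 with an SE of 0.30, adjusted p = 2.1e-05). In VHL-positive cells IFI44 had 3.27, 3.20 and 2.64 CPM under JQ1, against 8.56, 9.51 and 8.27 CPM under DMSO, and fell as well (log2 -1.52 with an SE of 0.24, adjusted p = 0.00017). IFI16, a sensor of foreign DNA, fell in VHL-negative (log2 -0.92, adjusted p = 0.000248) and VHL-positive cells (log2 -0.47, adjusted p = 0.0243), the VHL-positive call being lost without any 1 of the 3 VHL-positive JQ1 libraries or VHL-positive DMSO replicate 3 (log2 -0.41, adjusted p = 0.102 without VHL-positive DMSO replicate 3). IFI6, a small membrane protein that promotes cell survival, went the other way: it had 6.69, 5.87 and 5.39 CPM in VHL-positive cells under JQ1, against 5.21, 0.982 and 2.26 CPM under DMSO, and rose (log2 1.09 with an SE of 0.38, adjusted p = 0.0374). The DMSO libraries of IFI6 spread over a wide range, and its call was lost without any 1 of 5 libraries: VHL-positive JQ1 replicates 1, 2 or 3 and DMSO replicates 2 or 3 (log2 0.95, adjusted p = 0.122 without VHL-positive DMSO replicate 3). The size of the rise ran from log2 0.71 without DMSO replicate 2 to log2 1.86 without DMSO replicate 1. In VHL-negative cells IFI6 had 2.25, 1.96 and 2.68 CPM under JQ1, against 0.924, 1.36 and 1.08 CPM under DMSO, and did not pass (log2 1.03, adjusted p = 0.0738). IFI27 and IFI35 passed in neither line.

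**Figure D3:**
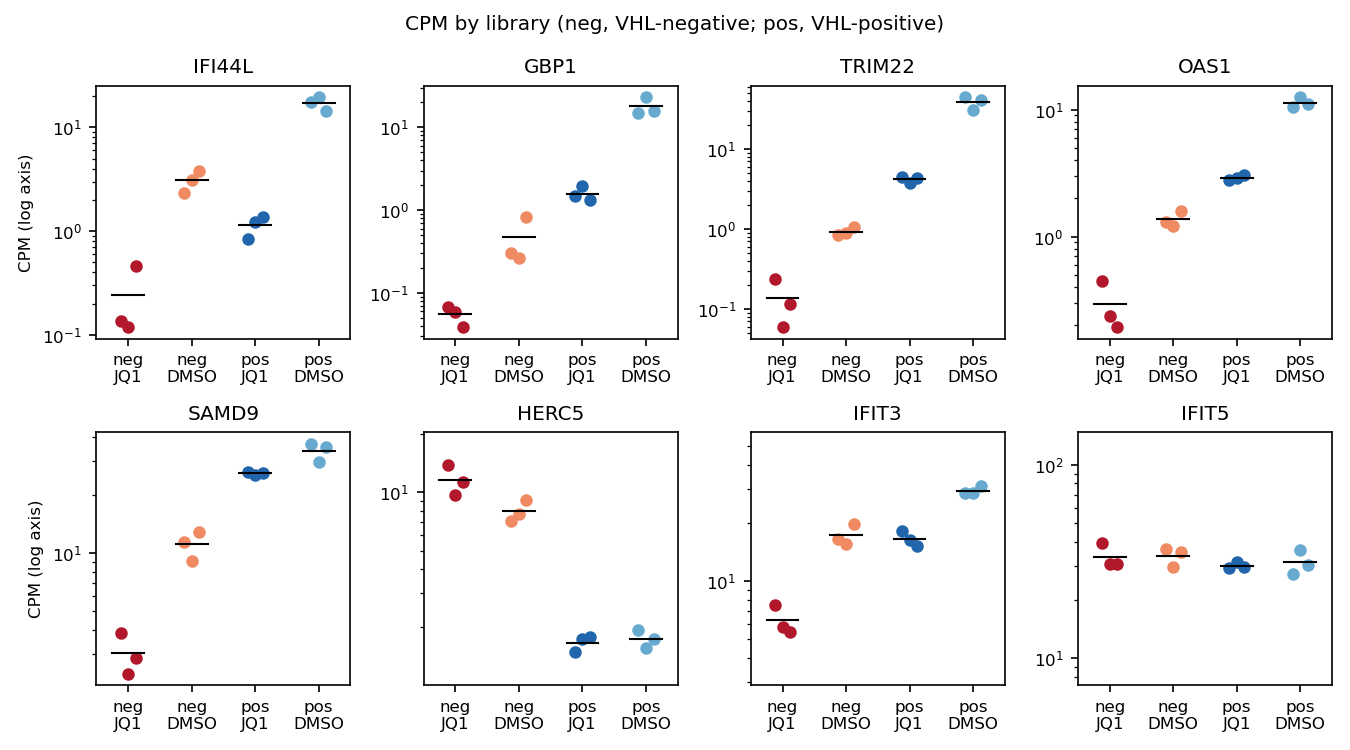
CPM on a log axis for 8 members in each library (points) with the mean of each group (bar), from left to right VHL-negative cells under JQ1 and DMSO, then VHL-positive cells under JQ1 and DMSO; the axes of the panels differ. IFI44L, GBP1, TRIM22, OAS1 and IFIT3 have every JQ1 library below every DMSO library of its line, SAMD9 is separated more in VHL-negative cells, HERC5 is high in VHL-negative cells and IFIT5 stays between 27.1 and 39.3 CPM.

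Of the dynamin-like GTPases, large proteins that assemble on viral capsids and on the membranes around intracellular pathogens, 3 of 4 tested fell in VHL-negative cells and 4 of 4 in VHL-positive cells. GBP1 (ENSG00000117228, chromosome 1, 89052319 to 89065360), a guanylate-binding protein, had 0.0683, 0.0595 and 0.0388 CPM in VHL-negative cells under JQ1, 4 counts in all, against 0.308, 0.266 and 0.832 CPM under DMSO (log2 -2.95 with an SE of 0.66, adjusted p = 0.00278). In VHL-positive cells GBP1 had 1.49, 1.94 and 1.32 CPM under JQ1, against 14.7, 22.9 and 15.9 CPM under DMSO (log2 -3.48 with an SE of 0.29, adjusted p = 5.8e-07). It fell in both, and no JQ1 library reached the lowest DMSO library of its line. Without VHL-negative DMSO replicate 3 the fall in VHL-negative cells was log2 -2.30. GBP3 (ENSG00000117226, chromosome 1, 89006666 to 89022894) had 7.44, 4.58 and 5.93 CPM in VHL-negative cells under JQ1, against 31.7, 27.7 and 32.0 CPM under DMSO (log2 -2.33 with an SE of 0.18, adjusted p = 2.37e-07), the smallest p among the members there. Its levels in VHL-positive cells were 12.1, 11.9 and 10.0 CPM under JQ1, against 35.2, 51.2 and 40.0 CPM under DMSO (log2 -1.89 with an SE of 0.18, adjusted p = 1.86e-06). GBP2 (ENSG00000162645, chromosome 1, 89106132 to 89150456) was near 0 in VHL-negative cells, with 0.239, 0 and 0.0776 CPM under JQ1, against 0.231, 0.295 and 0.470 CPM under DMSO, and did not pass (log2 -1.39, adjusted p = 0.1). In VHL-positive cells GBP2 had 6.03, 5.74 and 3.78 CPM under JQ1, against 13.5, 7.94 and 11.4 CPM under DMSO, and fell (log2 -1.07, adjusted p = 0.00815), a call lost without JQ1 replicate 3 (log2 -0.87, adjusted p = 0.0554 without VHL-positive JQ1 replicate 3). MX1, which blocks influenza virus, fell in VHL-negative (log2 -1.81, adjusted p = 0.000647) and VHL-positive cells (log2 -1.06, adjusted p = 0.0259), the VHL-positive call being lost without JQ1 replicates 1 or 2 or DMSO replicate 1 (log2 -0.66, adjusted p = 0.155 without VHL-positive DMSO replicate 1). Other genes share 10.2% of the 50-base stretches of GBP2, 9.62% of GBP1 and 4.76% of GBP3, so some reads could be assigned to more than 1 GBP gene. For GBP2 the gene that shared most was GBP7, which overlaps it: 9.89% of GBP2 exon bases also lie in GBP7 on the same strand.

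Among 12 effectors that recognise or degrade foreign RNA, 5 fell in VHL-negative cells and 10 in VHL-positive cells, and none rose. IFIT3 (ENSG00000119917, chromosome 10, 89327894 to 89340971), which stabilises IFIT1 on viral RNA, had 7.54, 5.77 and 5.47 CPM in VHL-negative cells under JQ1, against 16.5, 15.5 and 19.7 CPM under DMSO (log2 -1.45 with an SE of 0.15, adjusted p = 4.36e-06). In VHL-positive cells IFIT3 had 18.1, 16.3 and 15.2 CPM under JQ1, against 28.4, 28.5 and 31.0 CPM under DMSO (log2 -0.82 with an SE of 0.15, adjusted p = 0.000481). It fell in both, with no overlap between JQ1 and DMSO libraries. IFIT1 (ENSG00000185745, chromosome 10, 89392546 to 89406486), which binds RNA with a foreign cap, had 1.77, 1.61 and 1.82 CPM in VHL-negative cells under JQ1, against 3.70, 2.87 and 4.30 CPM under DMSO, and fell (log2 -1.05 with an SE of 0.20, adjusted p = 0.000859). Its fall in VHL-positive cells was smaller, with 9.85, 7.93 and 7.85 CPM under JQ1, against 13.6, 11.6 and 14.3 CPM under DMSO (log2 -0.62, adjusted p = 0.011), and was lost without JQ1 replicates 2 or 3 or DMSO replicate 3 (log2 -0.55, adjusted p = 0.0641 without VHL-positive JQ1 replicate 3); the difference between the lines did not pass (log2 -0.42, adjusted p = 0.342). IFIT2, a relative that inhibits translation, fell in VHL-positive cells (log2 -0.995, adjusted p = 0.000343) and did not pass in VHL-negative cells (log2 -0.24, adjusted p = 0.294). IFIT5, which binds the ends of RNA and lies next to IFIT1, had 39.3, 30.7 and 30.5 CPM in VHL-negative cells under JQ1, against 36.7, 29.6 and 35.2 CPM under DMSO, and 29.3, 31.2 and 29.5 CPM in VHL-positive cells under JQ1, against 27.1, 36.2 and 30.5 CPM under DMSO. The intervals of its change ran from log2 -0.32 to 0.29 in VHL-negative and from log2 -0.36 to 0.25 in VHL-positive cells.

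The oligoadenylate synthetases, which make the messenger that switches on RNase L, included OAS1 and OAS3, which fell in both lines. OAS1 (ENSG00000089127, chromosome 12, 112906777 to 112933222) had 0.444, 0.238 and 0.194 CPM in VHL-negative cells under JQ1, against 1.31, 1.21 and 1.59 CPM under DMSO (log2 -2.16 with an SE of 0.29, adjusted p = 4.62e-05). In VHL-positive cells OAS1 had 2.80, 2.91 and 3.04 CPM under JQ1, against 10.5, 12.5 and 11.0 CPM under DMSO (log2 -1.96 with an SE of 0.20, adjusted p = 4.01e-06). The groups of both lines did not overlap. OAS3 (ENSG00000111331, chromosome 12, 112938352 to 112973249), the synthetase most active on long RNA, had 20.1, 18.3 and 19.1 CPM in VHL-negative cells under JQ1, against 65.9, 54.9 and 67.4 CPM under DMSO (log2 -1.71 with an SE of 0.18, adjusted p = 3.6e-06). OAS3 stood at 62.3, 54.4 and 66.2 CPM in VHL-positive cells under JQ1, against 102, 181 and 144 CPM under DMSO (log2 -1.22 with an SE of 0.17, adjusted p = 7.02e-05). OAS2 and OASL, a relative without synthetase activity, reached at most 0.692 and 0.865 CPM and fell in VHL-positive cells (log2 -2.20, adjusted p = 0.0178, and log2 -2.64, adjusted p = 0.00547), the OAS2 call being lost without JQ1 replicates 1 or 3 (log2 -2.06, adjusted p = 0.0823 without VHL-positive JQ1 replicate 1) and the OASL fall being log2 -3.80 without JQ1 replicate 1. In VHL-negative cells OASL had 3 counts under JQ1, against 1 under DMSO. EIF2AK2, the kinase PKR that stops translation on binding viral RNA, fell in VHL-positive cells (log2 -0.73, adjusted p = 0.00357) and did not pass in VHL-negative cells (log2 -0.22, adjusted p = 0.336), and the exonuclease ISG20 likewise fell in VHL-positive cells (log2 -1.23, adjusted p = 0.00589) and did not pass in VHL-negative cells (log2 -0.16, adjusted p = 0.727). The helicase DDX60, a cofactor of RNA sensing, fell in VHL-positive cells (log2 -1.12, adjusted p = 0.000227) and in VHL-negative cells (log2 -0.55, adjusted p = 0.0281), there not without JQ1 replicates 2 or 3 or DMSO replicate 3 (log2 -0.38, adjusted p = 0.128 without VHL-negative DMSO replicate 3). Its neighbour DDX60L passed in neither line.

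The enzymes that attach ubiquitin or ADP-ribose fell together apart from TRIM21, an antibody receptor and ubiquitin ligase, with 4 of 5 lower in each line. TRIM22 (ENSG00000132274, chromosome 11, 5689689 to 5737089), an antiviral ubiquitin ligase, had 0.239, 0.0595 and 0.116 CPM in VHL-negative cells under JQ1, against 0.847, 0.886 and 1.05 CPM under DMSO (log2 -2.57 with an SE of 0.36, adjusted p = 6.25e-05; log2 -3.25 without VHL-negative JQ1 replicate 1). In VHL-positive cells TRIM22 had 4.47, 3.80 and 4.36 CPM under JQ1, against 44.02, 31.1 and 40.5 CPM under DMSO (log2 -3.20 with an SE of 0.18, adjusted p = 9.84e-09), the smallest p among the members there. Of its exon bases 10.7% also lie in OR56B1. PARP9 (ENSG00000138496, chromosome 3, 122527924 to 122564577), which works in a complex with DTX3L, had 11.7, 8.74 and 10.4 CPM in VHL-negative cells under JQ1, against 33.97, 24.1 and 27.5 CPM under DMSO (log2 -1.46 with an SE of 0.15, adjusted p = 2.6e-06). PARP9 had 31.3, 29.8 and 29.5 CPM in VHL-positive cells under JQ1, against 56.2, 59.8 and 61.0 CPM under DMSO (log2 -0.97 with an SE of 0.14, adjusted p = 9.91e-05). DTX3L, which starts head to head with PARP9, fell in VHL-negative (log2 -0.87, adjusted p = 0.000112) and VHL-positive cells (log2 -0.69, adjusted p = 0.000749). PARP14 (ENSG00000173193, chromosome 3, 122680618 to 122730840), a mono-ADP-ribosyltransferase, was at 47.4, 39.5 and 42.2 CPM in VHL-negative cells under JQ1, against 103, 101 and 112 CPM under DMSO (log2 -1.29 with an SE of 0.12, adjusted p = 8.43e-07). PARP14 was at 113, 105 and 111 CPM in VHL-positive cells under JQ1, against 166, 175 and 177 CPM under DMSO (log2 -0.65 with an SE of 0.11, adjusted p = 0.000424). In each of these members the JQ1 libraries lay below the DMSO libraries of the same line.

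The members that restrain growth or act in nuclear bodies included the one whose JQ1 effect differed between the lines. SAMD9 (ENSG00000205413, chromosome 7, 93099513 to 93118023), which limits poxviruses and cell proliferation, had 3.86, 2.38 and 2.87 CPM in VHL-negative cells under JQ1, against 11.4, 9.10 and 12.9 CPM under DMSO, and fell (log2 -1.84 with an SE of 0.18, adjusted p = 2.33e-06). In VHL-positive cells SAMD9 had 26.4, 25.4 and 26.1 CPM under JQ1, against 36.7, 29.5 and 35.5 CPM under DMSO, and did not pass (log2 -0.39 with an SE of 0.16, adjusted p = 0.0768). The difference between both effects was itself tested and passed (log2 -1.46 with an SE of 0.24, adjusted p = 0.00911). The call was lost in 1 of 12 fits that left out a library (log2 -1.42, adjusted p = 0.0508 without VHL-negative JQ1 replicate 3). SAMD9L (ENSG00000177409, chromosome 7, 93130055 to 93148369), its relative on the same chromosome, fell in both lines: it had 0.0683, 0.0595 and 0.0388 CPM in VHL-negative cells under JQ1, 4 counts in all, against 0.462, 0.473 and 0.687 CPM under DMSO (log2 -3.17 with an SE of 0.47, adjusted p = 0.000102). In VHL-positive cells SAMD9L had 1.74, 1.34 and 1.78 CPM under JQ1, against 8.13, 11.6 and 10.6 CPM under DMSO (log2 -2.64 with an SE of 0.22, adjusted p = 6.93e-07). SP110, a nuclear body protein, fell in VHL-negative cells (log2 -0.81, adjusted p = 0.00357). XAF1, an antagonist of the apoptosis inhibitor XIAP, fell in VHL-positive cells with 0.109, 0.324 and 0.172 CPM under JQ1, against 2.48, 2.12 and 2.04 CPM under DMSO (log2 -3.43, adjusted p = 5.15e-05), and had 2 counts in VHL-negative cells under JQ1, against 0 under DMSO. EPSTI1, an interferon-induced protein of epithelium and stroma, fell in VHL-positive cells (log2 -1.73, adjusted p = 0.0084; log2 -1.56, adjusted p = 0.0503 without VHL-positive JQ1 replicate 1) and had 0 counts in VHL-negative cells under JQ1, against 1 under DMSO. Of the exon bases of XAF1, 38.3% lie opposite PRAL, and of those of SP110 20.9% lie opposite other genes; the sources used here do not give the strand setting of the counting.

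Genes of ISG15 conjugation did not fall as a group. ISG15, the ubiquitin-like modifier itself, had 17.2, 13.3 and 15.4 CPM in VHL-positive cells under JQ1, against 12.8, 7.82 and 10.2 CPM under DMSO, and rose (log2 0.57 with an SE of 0.19, adjusted p = 0.034). That call was lost without VHL-positive JQ1 replicates 1 or 3 or DMSO replicates 2 or 3 (log2 0.49, adjusted p = 0.132 without VHL-positive JQ1 replicate 1), and the calls of ISG15 and of IFI6 were both lost with total counts in place of TMM (log2 0.45, adjusted p = 0.143 for ISG15, and log2 0.95, adjusted p = 0.0823 for IFI6). ISG15 had 8.29, 6.13 and 8.34 CPM in VHL-negative cells under JQ1, against 5.85, 6.59 and 8.32 CPM under DMSO, and did not pass (log2 0.14, adjusted p = 0.623). HERC5 (ENSG00000138646, chromosome 4, 88457117 to 88506163), the main ligase that attaches ISG15 in human cells, had 13.8, 9.69 and 11.4 CPM in VHL-negative cells under JQ1, against 7.09, 7.77 and 9.11 CPM under DMSO, and rose (log2 0.54 with an SE of 0.17, adjusted p = 0.0235). The rise was lost with total counts (log2 0.51, adjusted p = 0.0637), when genes with few counts were kept (log2 0.49, adjusted p = 0.111) and without VHL-negative JQ1 replicates 1 or 3 or DMSO replicates 1 or 2 (log2 0.39, adjusted p = 0.0968 without VHL-negative JQ1 replicate 1). HERC6, which is the ISG15 ligase in mouse, passed in neither line. USP18, which removes ISG15 and damps the interferon receptor, fell in VHL-positive cells (log2 -2.06, adjusted p = 0.00447) and did not pass in VHL-negative cells (log2 0.47, adjusted p = 0.533); 23.4% of its 50-base stretches are shared with USP41 and other genes.

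Nucleotide and membrane effectors made up the rest. Of the 2 nucleotide enzymes 1 fell in VHL-negative and 2 in VHL-positive cells, and of the 3 tested membrane effectors 2 fell in VHL-negative and 0 in VHL-positive cells. RSAD2, or viperin, which makes a chain-terminating nucleotide, had 0.0364, 0.0405 and 0.115 CPM in VHL-positive cells under JQ1, against 0.947, 0.786 and 0.421 CPM under DMSO, and fell (log2 -3.51, adjusted p = 0.00968; log2 -3.21, adjusted p = 0.0533 without VHL-positive JQ1 replicate 1). CMPK2, a nucleotide kinase encoded beside it, fell in VHL-positive cells with 0.0727, 0.243 and 0.115 CPM under JQ1, against 1.35, 3.10 and 1.62 CPM under DMSO (log2 -3.77, adjusted p = 7.66e-05; log2 -4.41 without JQ1 replicate 2). In VHL-negative cells CMPK2 fell as well (log2 -1.42, adjusted p = 0.0441), a call lost without VHL-negative JQ1 replicates 2 or 3, VHL-negative DMSO replicates 1 or 3, or replicate 3 of either VHL-positive group (log2 -1.06, adjusted p = 0.14 without VHL-negative JQ1 replicate 2). BST2 fell in VHL-negative cells (log2 -0.83, adjusted p = 0.000708) and did not pass in VHL-positive cells (log2 -0.41, adjusted p = 0.0522). LGALS3BP fell in VHL-negative cells (log2 -0.57, adjusted p = 0.0316), where DMSO replicate 1, the library with the highest mitochondrial share, stood at 382 CPM and the others at 225 and 226 CPM. Its call was lost without that library (log2 -0.27, adjusted p = 0.222 without VHL-negative DMSO replicate 1) and without JQ1 replicates 1 (adjusted p = 0.0772) or 3 (adjusted p = 0.0872). IFITM3, which keeps viruses from fusing with endosomes, passed in neither line.

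For the difference between the JQ1 effects of the lines, SAMD9 was the 1 member that passed, and 40 did not. Of all genes, 0.71% had a lower and 0.497% a higher JQ1 effect in VHL-negative cells. So the 10 members that fell in VHL-positive cells and did not pass in VHL-negative cells are not shown to respond differently: their differences had adjusted p-values from 0.0842 (USP18) to 0.792 (GBP2). Several of the 10, among them XAF1, EPSTI1, OASL and OAS2, had under 10 counts per group in VHL-negative cells. BST2, LGALS3BP and SP110, which fell in VHL-negative cells and did not pass in VHL-positive cells, had differences with adjusted p-values of 0.26, 0.529 and 0.432. Nearest to the threshold after SAMD9 was PARP14 (log2 -0.64, adjusted p = 0.0628). The number of members that passed depended on VHL-negative JQ1 replicate 1: without it 6 members had a lower effect in VHL-negative cells, namely IFIT3, TRIM21, PARP9, IFI16, PARP14 and SAMD9, and 1, XAF1, a higher one. Of all 21706 genes in that fit 2209 had a lower and 1301 a higher effect, against 147 and 103 of 20714 with every library. XAF1 had 2 counts in VHL-negative cells under JQ1 and 0 under DMSO, over the whole groups. Without VHL-negative JQ1 replicate 3 no member passed, and of all 21590 genes 26 had a lower and 17 a higher effect. Without VHL-negative DMSO replicate 3 RSAD2 also had a higher effect, and of all 21847 genes 88 had a lower and 36 a higher one. All 11 RSAD2 counts of VHL-negative cells under DMSO were in that library, so no count was left on that side of the fit.

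The same genes were mostly lower in VHL-negative than in VHL-positive cells. Under DMSO 28 of 41 members were lower, 2 were higher and 11 did not pass, with a median of log2 -0.87, where all genes had 0.00. Under JQ1 24 were lower, 2 higher and 15 did not pass, with a median of log2 -0.91, where all genes had 0.03. Of all genes, 15.9% were lower and 14.8% higher in VHL-negative cells under DMSO, and 21.2% lower and 19.7% higher under JQ1. At least a 2-fold lower level was fitted for 20 of the members called under DMSO and for 18 under JQ1, and all genes were not counted at that cut. The libraries are those whose values are given above, so these comparisons share them with the JQ1 comparisons. Under DMSO the lower members were 3 of 4 GTPases, 7 of 12 RNA effectors, 2 of 2 nucleotide enzymes, 2 of 4 genes of ISG15 conjugation, 4 of 5 ubiquitin and ADP-ribose enzymes, 5 of 6 IFI genes, 5 of 5 growth and other effectors and 0 of 3 membrane effectors. Under JQ1 the same groups had 3, 4, 0, 1, 4, 6, 5 and 1 lower members. Of the calls under DMSO, those of ISG15, IFI6 and SP110 had overlapping libraries.

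**Figure D4:**
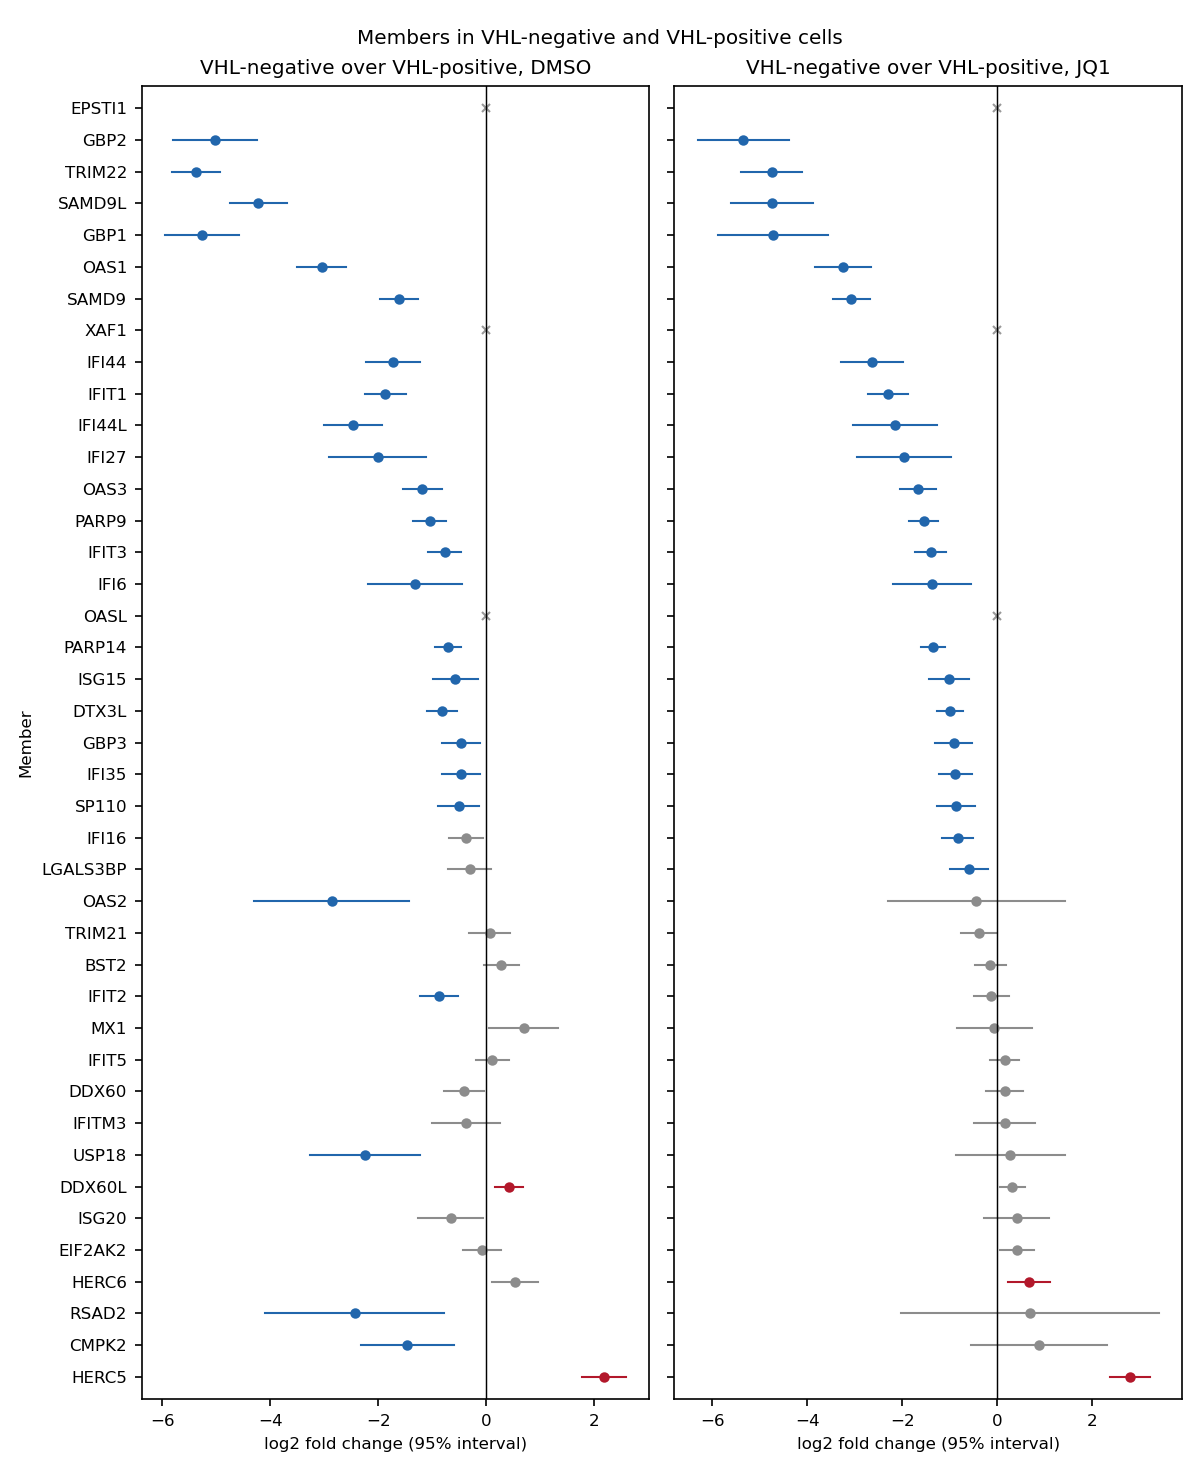
Each tested member in VHL-negative over VHL-positive cells under DMSO (left) and under JQ1 (right), as log2 fold change with its 95% interval; blue was lower, red higher, grey did not pass, and a grey cross marks a member with 3 or fewer counts in a group, for which no fold is drawn. TRIM22, GBP1, GBP2 and SAMD9L lie near or beyond log2 -4 in both panels, and HERC5 lies at log2 2.19 and 2.81.

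Among members with more than 3 counts in each group, the widest gaps were in TRIM22, GBP1, GBP2 and SAMD9L. TRIM22 averaged 0.927 ± 0.107 CPM in VHL-negative and 38.5 ± 6.69 CPM in VHL-positive cells under DMSO (log2 -5.37 with an SE of 0.21, adjusted p = 1.61e-11), and 0.138 ± 0.0917 and 4.21 ± 0.357 CPM under JQ1 (log2 -4.75 with an SE of 0.30, adjusted p = 4.86e-09). GBP1 averaged 0.469 ± 0.315 CPM in VHL-negative and 17.9 ± 4.44 CPM in VHL-positive cells under DMSO (log2 -5.26 with an SE of 0.33, adjusted p = 3.21e-09). GBP2 stood at 0.332 ± 0.124 CPM in VHL-negative and 10.9 ± 2.80 CPM in VHL-positive cells under DMSO (log2 -5.02 with an SE of 0.37, adjusted p = 2.55e-08), and at 0.105 ± 0.122 and 5.19 ± 1.22 CPM under JQ1 (log2 -5.35 with an SE of 0.45, adjusted p = 1.59e-07). Leaving out 1 library moved 3 of these gaps by over 1.5 times: TRIM22 under JQ1 was at log2 -5.44 and GBP2 under JQ1 at log2 -6.68 without VHL-negative JQ1 replicate 1, and GBP1 under DMSO was at log2 -5.94 without VHL-negative DMSO replicate 3. GBP3, beside GBP1 on the same strand, was lower under DMSO (log2 -0.47, adjusted p = 0.0434), and that call was lost without any 1 of 9 libraries, those other than VHL-negative JQ1 replicates 1 and 2 and VHL-positive DMSO replicate 1 (log2 -0.30, adjusted p = 0.206 without VHL-positive DMSO replicate 2). SAMD9L averaged 0.541 ± 0.127 CPM in VHL-negative and 10.1 ± 1.79 CPM in VHL-positive cells under DMSO (log2 -4.22 with an SE of 0.25, adjusted p = 1.46e-09), and 0.0555 ± 0.0151 and 1.62 ± 0.246 CPM under JQ1 (log2 -4.74 with an SE of 0.41, adjusted p = 1.84e-07). SAMD9 was lower by less under DMSO (log2 -1.61 with an SE of 0.17, adjusted p = 1.32e-06) than under JQ1 (log2 -3.07 with an SE of 0.18, adjusted p = 2.39e-09), which is the same difference as that between its JQ1 effects.

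The RNA effectors were lower to different degrees. OAS1 averaged 1.37 ± 0.197 CPM in VHL-negative and 11.3 ± 1.00 CPM in VHL-positive cells under DMSO (log2 -3.05 with an SE of 0.21, adjusted p = 1.29e-08), and was lower under JQ1 too (log2 -3.24 with an SE of 0.28, adjusted p = 1.76e-07). IFIT1 averaged 3.62 ± 0.721 CPM in VHL-negative and 13.2 ± 1.42 CPM in VHL-positive cells under DMSO (log2 -1.87 with an SE of 0.18, adjusted p = 6.17e-07), and likewise under JQ1 (log2 -2.29 with an SE of 0.20, adjusted p = 1.76e-07). IFIT3 and OAS3 were lower under DMSO (log2 -0.77, adjusted p = 0.000679, and log2 -1.18, adjusted p = 5.88e-05) and under JQ1 (log2 -1.40, adjusted p = 3.35e-06, and log2 -1.67, adjusted p = 2.25e-06). OASL had 1 count in VHL-negative cells under DMSO, against 63 in VHL-positive cells, a ratio of 64.0 with a counting interval of 11.1 to 2566 in favour of VHL-positive cells. PARP14 averaged 43.0 ± 4.05 CPM in VHL-negative and 109.8 ± 3.97 CPM in VHL-positive cells under JQ1 (log2 -1.35 with an SE of 0.12, adjusted p = 1.76e-07).

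XAF1 and EPSTI1 were at or near 0 in VHL-negative cells. XAF1 had 0 counts in the 3 VHL-negative DMSO libraries together, against 190 in the VHL-positive ones, and so was at least 64.3-fold lower, with a floor of 3 counts over the group. EPSTI1 had 1 count under DMSO in VHL-negative cells, against 92 in VHL-positive cells (ratio 93.4, counting interval 16.4 to 3729 in favour of VHL-positive cells). Under JQ1 EPSTI1 had 0 counts in VHL-negative cells, against 22 in VHL-positive cells, at least 7.57-fold lower. For XAF1 under JQ1 the counts were 2 in VHL-negative and 14 in VHL-positive cells (ratio 7.22, interval 1.66 to 65.5 in favour of VHL-positive cells), and its call there was lost without VHL-negative JQ1 replicate 1 (adjusted p = 0.066) or VHL-positive JQ1 replicate 2 (adjusted p = 0.0989). These intervals and floors cover counting error alone.

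HERC5 ran against most members. In VHL-positive cells it had 1.49, 1.74 and 1.78 CPM under JQ1 and 1.93, 1.57 and 1.74 CPM under DMSO. It averaged 7.99 ± 1.03 CPM in VHL-negative and 1.75 ± 0.180 CPM in VHL-positive cells under DMSO (log2 2.19 with an SE of 0.19, adjusted p = 2.08e-07), and 11.6 ± 2.06 and 1.67 ± 0.156 CPM under JQ1 (log2 2.81 with an SE of 0.20, adjusted p = 1.57e-08). All 6 VHL-negative libraries lay above all 6 VHL-positive libraries. HERC6, which lies beside it on chromosome 4, was higher in VHL-negative cells under JQ1 (log2 0.68, adjusted p = 0.0154), though not without VHL-negative JQ1 replicate 1 (log2 0.36, adjusted p = 0.12 without VHL-negative JQ1 replicate 1) or VHL-positive JQ1 replicate 3 (adjusted p = 0.0734), and did not pass under DMSO (log2 0.53, adjusted p = 0.0565). DDX60L was higher under DMSO (log2 0.42, adjusted p = 0.0163), a call lost without VHL-negative DMSO replicates 2 or 3 or VHL-positive DMSO replicates 1 or 3 (log2 0.36, adjusted p = 0.0654 without VHL-positive DMSO replicate 1). ISG15, which HERC5 attaches, was lower under JQ1 (log2 -1.002, adjusted p = 0.000871) and under DMSO (log2 -0.57, adjusted p = 0.0372), the DMSO groups overlapping and the call lost without any 1 of 6 libraries: VHL-negative JQ1 replicate 3, VHL-negative DMSO replicates 1 or 2, VHL-positive JQ1 replicate 3, and VHL-positive DMSO replicates 1 or 3 (log2 -0.38, adjusted p = 0.186 without VHL-positive DMSO replicate 1).

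The remaining members split by treatment. All 6 IFI genes were lower in VHL-negative cells under JQ1, from log2 -0.83 for IFI16 to log2 -2.64 for IFI44, and 5 of 6 were lower under DMSO. IFI44L under JQ1 was at log2 -2.15, and at log2 -3.07 without VHL-negative JQ1 replicate 3. Under DMSO the lowest was IFI44L (log2 -2.46, adjusted p = 1.38e-06), and IFI16 did not pass (log2 -0.38, adjusted p = 0.0642). RSAD2, CMPK2, USP18, OAS2 and IFIT2 were lower in VHL-negative cells under DMSO, at log2 -2.43, -1.46, -2.24, -2.86 and -0.87, and none of the 5 passed under JQ1. That pattern does not show that the gap differed between treatments, since none of the 5 passed the test of that difference (adjusted p = 0.0842 to 0.241). Of the 30 calls under DMSO, 8 were lost in at least 1 fit without a library: those of GBP3, DDX60L and ISG15 above, and of 5 others. IFI6 lost it without VHL-negative DMSO replicates 1 or 3 or VHL-positive DMSO replicate 1 (log2 -0.54, adjusted p = 0.245 without VHL-positive DMSO replicate 1). RSAD2 lost it without replicates 1 or 2 of either DMSO group (log2 -1.79, adjusted p = 0.107 without VHL-negative DMSO replicate 2). All 11 RSAD2 counts of VHL-negative cells under DMSO were in replicate 3, against 60 counts in VHL-positive cells, and without that library the fitted value was log2 -7.24, which is no bound since both libraries left had 0 counts. CMPK2 lost it without replicate 2 of either (log2 -1.01, adjusted p = 0.0779 without VHL-positive DMSO replicate 2). The calls of IFI35 and SP110 were each lost without any 1 of 8 libraries. For IFI35 the 4 it kept without were VHL-negative JQ1 replicates 1 and 2, VHL-negative DMSO replicate 3 and VHL-positive DMSO replicate 2 (log2 -0.36, adjusted p = 0.159 without VHL-negative DMSO replicate 2). For SP110 they were VHL-negative JQ1 replicates 1 and 2, VHL-negative DMSO replicate 1 and VHL-positive JQ1 replicate 2 (log2 -0.34, adjusted p = 0.177 without VHL-negative DMSO replicate 3). Under JQ1 3 of 26 were lost, those of HERC6 and XAF1 above and of LGALS3BP, which lost it without VHL-negative JQ1 replicates 1 or 3 or VHL-positive JQ1 replicate 3 (log2 -0.60, adjusted p = 0.0567 without VHL-negative JQ1 replicate 3).

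Several members lie in clusters, and neighbours did not always move alike. In the IFIT cluster on chromosome 10, IFIT2, IFIT3 and IFIT1 were lower in VHL-negative cells under DMSO, at log2 -0.87, -0.77 and -1.87, while IFIT5 at the end of the cluster was at log2 0.11 (adjusted p = 0.592). Among OAS1, OAS3 and OAS2 on chromosome 12, the fall with JQ1 in VHL-positive cells was log2 -1.96, -1.22 and -2.20. PARP9, DTX3L and PARP14 on chromosome 3 changed by log2 -1.46, -0.87 and -1.29 in VHL-negative cells. DDX60 changed by log2 -1.12 in VHL-positive cells and DDX60L, beside it on chromosome 4, was at log2 -0.04 (adjusted p = 0.831). Whether neighbours differ from each other was not tested.

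Of the pathway above the effectors, 38 of 50 listed genes were tested. With JQ1 8 rose, 8 fell and 22 did not pass in VHL-negative cells, with a median of log2 -0.02, and 11 rose, 11 fell and 16 did not pass in VHL-positive cells, with a median of log2 -0.01. Of all genes, 14.6% rose and 17.5% fell in VHL-negative cells, and 15.3% rose and 16.5% fell in VHL-positive cells. The pooled median covers roles that moved apart. Of 11 tested sensors 5 fell and 0 rose in VHL-negative cells (median log2 -0.44), and 6 fell and 1 rose in VHL-positive cells (median log2 -0.56). Of 7 inhibitors 3 rose and 0 fell in VHL-negative cells (median log2 0.22), and 5 rose and 0 fell in VHL-positive cells (median log2 0.55). Some of these calls were lost in fits without 1 library. In VHL-negative cells those of the inhibitor PIAS1 and the sensor TICAM1 were each lost in 6 of 12 fits. In VHL-positive cells the inhibitor TRIM24 lost its call in 5 fits, and the sensors TICAM1, CGAS and RIGI in 5, 3 and 1. Whether roles differ from each other was not tested. Of 10 interferon ligands 9 were not tested: IFNB1, IFNG and IFNL3 had no count in any library, which allows up to 0.0886 to 0.178 CPM per library, and 6 had 1 to 4 counts in all. IFNE, an epithelial interferon, was tested and had 0.819, 1.84 and 1.24 CPM in VHL-negative cells under JQ1, against 0.424, 0.473 and 0.362 CPM under DMSO, and rose (log2 1.58, adjusted p = 0.00642). In VHL-positive cells IFNE had 0.545, 1.05 and 1.20 CPM under JQ1, against 1.13, 0.629 and 0.872 CPM under DMSO, and did not pass (log2 0.06, adjusted p = 0.929), and the difference between both effects did not pass (log2 1.52, adjusted p = 0.134).

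**Figure D5:**
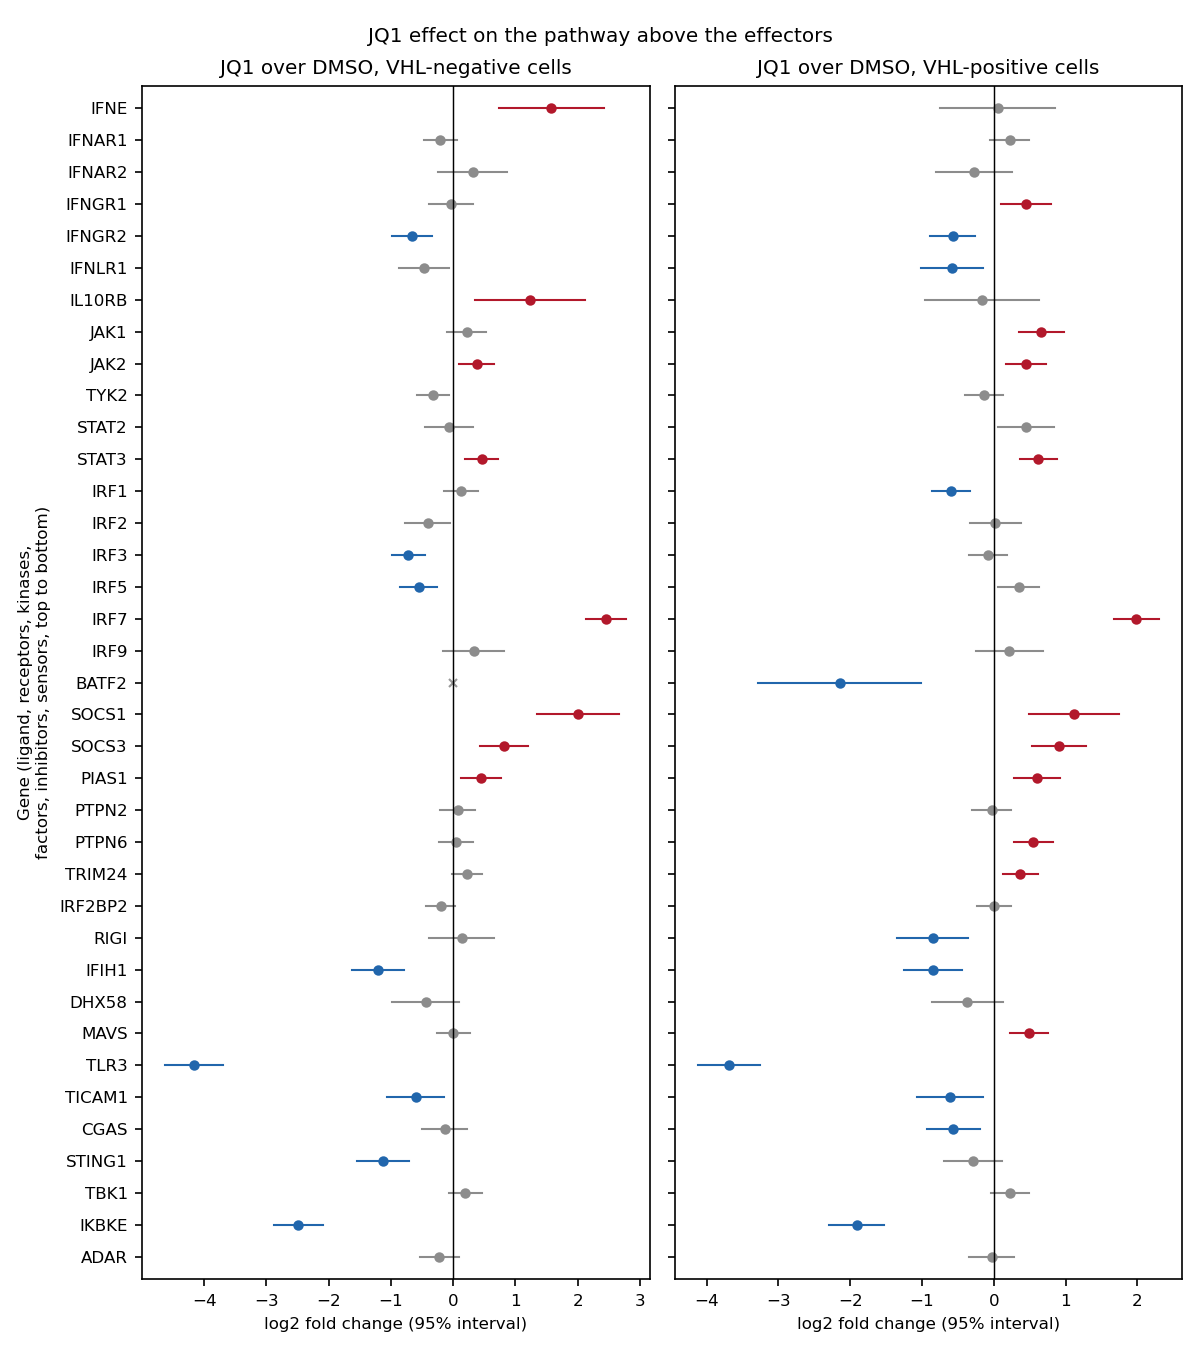
JQ1 effect on tested genes of interferon signalling and sensing in VHL-negative cells (left) and VHL-positive cells (right), as log2 fold change of JQ1 over DMSO with its 95% interval; colours and crosses are as in the plot of the members. TLR3 and IKBKE lie far to the left and IRF7 and the SOCS genes to the right in both lines, while STAT2 and IRF9 lie between log2 -0.07 and 0.45.

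TLR3, the receptor for viral RNA in endosomes, had 0.546, 0.357 and 0.465 CPM in VHL-negative cells under JQ1, against 8.09, 7.71 and 9.58 CPM under DMSO (log2 -4.16 with an SE of 0.22, adjusted p = 7.19e-09), and 0.800, 0.890 and 0.688 CPM in VHL-positive cells under JQ1, against 9.44, 10.9 and 10.8 CPM under DMSO (log2 -3.69 with an SE of 0.20, adjusted p = 7.84e-09). IKBKE, a kinase that activates IRF3 and IRF7, fell in VHL-negative (log2 -2.49, adjusted p = 1.69e-07) and VHL-positive cells (log2 -1.91, adjusted p = 2.31e-06). IRF7, the factor that amplifies interferon production, rose in both lines: it had 46.0, 41.7 and 43.2 CPM in VHL-negative cells under JQ1, against 7.36, 8.66 and 7.70 CPM under DMSO (log2 2.46 with an SE of 0.15, adjusted p = 2.96e-08). In VHL-positive cells IRF7 had 38.9, 37.3 and 40.6 CPM under JQ1, against 8.20, 8.96 and 12.2 CPM under DMSO (log2 1.98 with an SE of 0.15, adjusted p = 2.42e-07). SOCS1 and SOCS3, inhibitors of the JAK kinases, rose in VHL-negative (log2 2.01, adjusted p = 0.000163, and log2 0.82, adjusted p = 0.00248) and VHL-positive cells (log2 1.12, adjusted p = 0.00863, and log2 0.91, adjusted p = 0.00105). STAT2 and IRF9, parts of ISGF3, passed in neither line (log2 -0.07, adjusted p = 0.797, and log2 0.33, adjusted p = 0.292 in VHL-negative, log2 0.45, adjusted p = 0.0729, and log2 0.21, adjusted p = 0.498 in VHL-positive cells).

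Between the lines the signalling genes were more often lower than higher in VHL-negative cells. Under DMSO 15 were lower, 3 higher and 20 did not pass (median log2 -0.30), and under JQ1 18 were lower, 2 higher and 18 did not pass (median log2 -0.39). Of all genes, 15.9% were lower and 14.8% higher under DMSO, and 21.2% lower and 19.7% higher under JQ1. IRF1, a factor that can bind the ISRE, averaged 19.6 ± 2.61 CPM in VHL-negative and 47.9 ± 2.29 CPM in VHL-positive cells under DMSO (log2 -1.29 with an SE of 0.13, adjusted p = 9.11e-07). IRF5, another factor of the family, was lower under DMSO (log2 -1.46, adjusted p = 5.05e-07) and under JQ1 (log2 -2.36, adjusted p = 2.7e-09). PTPN2, a phosphatase that damps JAK signalling, was lower as well under DMSO (log2 -1.31, adjusted p = 9.9e-07) and JQ1 (log2 -1.20, adjusted p = 2.96e-06). JAK1 averaged 454 ± 88.2 CPM in VHL-negative and 967 ± 14.6 CPM in VHL-positive cells under JQ1 (log2 -1.09, adjusted p = 3.15e-05), and SOCS3 39.5 ± 5.01 and 93.8 ± 24.5 CPM (log2 -1.24, adjusted p = 4.94e-05).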

How the data were processed

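The deposited table holds raw counts per gene, made by the authors. Per the submitters' processing notes, which give no role or order, the tools were STAR 2.7.8, Subread 2.0.3, featureCounts and DESeq2 1.30.1, and the build was GRCh38. The strand setting and the annotation release are not given in the sources used here. Symbols came from GENCODE, and all 12 count columns were used.

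Genes with enough counts in edgeR's filterByExpr (99.9% of counts) were normalised with TMM, and 1 quasi-likelihood model over the 4 groups was fitted in edgeR 4.0.16 (limma 3.58.1, R 4.3.3). Benjamini-Hochberg adjustment ran over all 20714 genes, and an adjusted p under 0.05 was called. The 5 tests set JQ1 against DMSO within a line, the VHL-negative against the VHL-positive line within a treatment, and 1 JQ1 effect against the other. Alternatives included other scalings, filters, DESeq2 1.42.0, limma-voom, and leaving out each library; a fit without mitochondrially encoded genes was chosen after seeing the data. The code was tested on simulated data.

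Members and gene lists were chosen with earlier results of these data known. By rule, values in every library were given for members called in the difference and for the 8 with the smallest p among called members averaging at least 1 CPM over all libraries, in each other comparison, and up to 4 called pathway genes a comparison were named. Library values of IFI6, ISG15, XAF1, RSAD2, CMPK2, IFIT5 and IFNE, and the other members and pathway genes named, were chosen for their role after their values were seen. Values of 1 gene on the pathway list, which its counts include, are not reported here.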

Additional observations from a re-analysis of the deposited data

Results flagged for a closer look

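Among the members, the JQ1 effect on SAMD9 differed between the lines by the test of the difference itself, at log2 -1.46 (edgeR's quasi-likelihood test, adjusted p = 0.00911). The JQ1 effect on SAMD9 was log2 -1.84 in VHL-negative cells (adjusted p = 2.33e-06) and log2 -0.39 in VHL-positive cells, where it did not pass (adjusted p = 0.0768).

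In the signalling pathway, IRF5 fell with JQ1 in VHL-negative cells, at log2 -0.69 to -0.47 in the fits without 1 library. In VHL-positive cells IRF5 did not pass, and its fitted JQ1 effect lay above 0, unlike that of SAMD9. The difference between both effects on IRF5 passed, at log2 -0.90 (edgeR, adjusted p = 0.0352). That call was lost in 8 of 12 fits without 1 library (VHL-negative JQ1 replicates 2 or 3, VHL-negative DMSO replicates 1 or 3, VHL-positive JQ1 replicates 1, 2 or 3, or VHL-positive DMSO replicate 1; adjusted p = 0.0507 to 0.102), and with total counts in place of TMM (adjusted p = 0.0788). No explanation of either difference was tested.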

How the results depend on the processing

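Across 24 alternatives, 185 results on named genes gave 4424 values, of which 4051 kept direction and side of the threshold, 373 lost the call and 0 reversed, and 128 results were kept in every setting. At an adjusted p under 0.01 the genes called in the 5 comparisons (JQ1 in VHL-negative and VHL-positive cells, VHL-negative against VHL-positive cells under DMSO and JQ1, and the difference) numbered 4039, 3989, 4137, 5483 and 47, against 6649, 6589, 6357, 8479 and 250. Without JQ1 replicate 3 of both lines, JQ1 called 3957 and 4160 genes, the lines under JQ1 4814 and the difference 25. The difference called 1336 genes with no filter and 1188 with DESeq2. Members that rose with JQ1 in VHL-negative cells numbered 0 at 0.01, with total counts or without JQ1 replicate 3 of both lines, and 2 with DESeq2 or the compared groups alone. In VHL-positive cells they numbered 0 under the same first 3 settings and 1 with the compared groups or protein-coding genes alone. Members higher in VHL-negative cells numbered 1 under DMSO at 0.01; under JQ1 they were 1 at 0.01 or without JQ1 replicate 3, and 4 with total counts, a 1 CPM filter, the compared groups or protein-coding genes. For the difference, 2 members were higher with no filter and 1 with DESeq2 or limma-voom, while 2 were lower with a 1 CPM filter, DESeq2 or protein-coding genes and 0 without JQ1 replicate 3.

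Fits without 1 library called 4672 to 8106, 4710 to 7355, 5008 to 7124, 6395 to 9644 and 43 to 3510 genes in the same order. Lower members ran from 18 to 23, 22 to 29, 22 to 29, 23 to 24 and 0 to 6, and higher members from 0 to 2, 0 to 2, 1 to 3, 1 to 3 and 0 to 1. With total counts alone the median of all genes moved to log2 -0.14 for JQ1 in VHL-positive cells, 0.19 between the lines under JQ1 and 0.11 for the difference. The genes called higher and lower were then 2069 and 3998 (3167 and 3422 with TMM), 5152 and 3148 (4082 and 4397), and 112 and 87 (103 and 147); they were 3338 and 2741 between the lines under DMSO (3058 and 3299). Of 18 same-numbered pairs of libraries 4 had a correlation over 0.1 (range -0.26 to 0.335). These were replicates 1 and 2 of VHL-negative JQ1 with those of VHL-negative DMSO (0.274 and 0.335) and of VHL-positive JQ1 (0.243 and 0.165). In all, 6 of 12 libraries correlated best with their own number, and the number expected by chance was not computed. The labels do not say whether replicate numbers mark a batch, and these values do not decide it. With the replicate block the calls were 6612, 6423, 6191, 8406 and 272, and CMPK2 and LGALS3BP (JQ1, VHL-negative) and GBP3 (DMSO) were lost among members. XAF1 and EPSTI1 had 0 to 2 counts per group in VHL-negative cells, so the depth bounds how low their levels there can be read. The cause of the shifts was not tested.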
